A study of Mus musculus with 11 samples.

Results

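A set of 10 genes of mitochondrial fatty acid beta-oxidation was examined in the gonadal white adipose tissue (WAT) of mice fed a diet that induces obesity. The 10 genes were chosen by symbol (Acadvl, Acadl, Acadm, Acads, Hadha, Hadhb, Hadh, Acaa2, Decr1 and Etfdh), and all 10 were present among the 12787 genes analysed. RNA came from 11 male C57BL/6J mice that had all eaten a 60% high fat diet (HFD) for 20 weeks. The 5 control mice had the HFD alone, labelled as vehicle, and the 6 treated mice had the HFD with 0.06% w/w iodomethylcholine (IMC), an inhibitor of the bacterial enzyme that converts choline to trimethylamine. A sixth control mouse was dropped at quality control, per the labels. No group on a lean diet was analysed here, so each comparison is between HFD-fed mice with and without the inhibitor. The paper reports that IMC blunted obesity and lowered fat mass in mice on this diet. The inhibitor and lower adiposity therefore cannot be told apart here. Each mouse gave 1 library, with 22320022 to 25155366 reads on the listed genes. The mice carry numbers only as names, and a mouse of one group is not paired with a mouse of the other.

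Beta-oxidation shortens a fatty acid in the mitochondrial matrix by one acetyl-CoA per turn. Each turn has the same order of reactions: an acyl-CoA dehydrogenase makes a double bond, an enoyl-CoA hydratase adds water, a hydroxyacyl-CoA dehydrogenase oxidises the product and a thiolase cleaves off acetyl-CoA. The acyl-CoA dehydrogenases pass their electrons through the electron transfer flavoprotein and its oxidoreductase to ubiquinone, and polyunsaturated fatty acids need auxiliary enzymes such as dienoyl-CoA reductase. White adipocytes mainly store and release fatty acids, but they hold the full pathway, and its genes are known targets of nuclear receptors of the PPAR family.

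All 10 genes had higher transcript levels in the HFD + IMC mice. Each passed limma at a Benjamini-Hochberg adjusted p under 0.05 over all 12787 genes, at which 20% of all genes were higher and 21.0% were lower. The log2 fold changes ran from 0.13 for Hadha to 0.61 for Decr1, with a median of 0.39, while the median over all genes was -0.03. For 9 of the 10 genes, every HFD + IMC mouse lay above every HFD mouse, against 12.5% of all genes. With libraries scaled to their total reads instead of the upper quartile, 6 of the 10 had no overlap, and Acadl, Hadha, Hadhb and Acaa2 overlapped. The level of the 10 genes together was 1787 ± 103 CPM in HFD mice (SD, n = 5, range 1662 to 1904) and 2355 ± 140 CPM in HFD + IMC mice (SD, n = 6, range 2188 to 2504), where CPM counts the reads of a gene relative to the scaled total of its library. In bulk tissue, more cells of a type and more RNA per cell cannot be told apart.

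**Figure D1:**
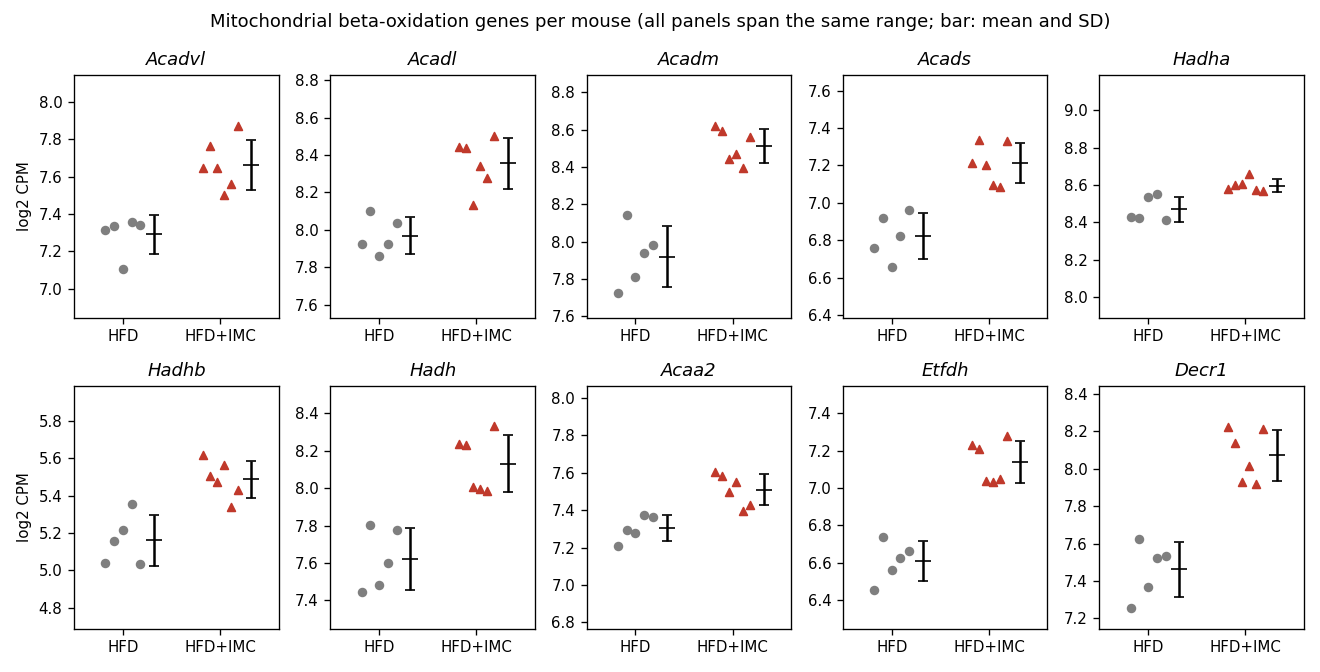
Level in log2 CPM of each of the 10 genes in every mouse, with HFD mice as grey circles and HFD + IMC mice as red triangles. The black bars give the mean and SD of each group, and only the Hadhb panel has an HFD + IMC mouse (5.34) below an HFD mouse (5.36).

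The first reaction is shared by dehydrogenases that prefer different chain lengths. Acadvl (chr11:70010183-70015428, RefSeq, GRCm38.p6, as for the loci that follow) encodes the very long-chain acyl-CoA dehydrogenase of the inner membrane. Its level was 7.31, 7.33, 7.11, 7.36 and 7.34 log2 CPM in HFD mice 1 to 5. In HFD + IMC mice it ran from 7.50 to 7.87 with a median of 7.65 log2 CPM. Every treated mouse was above every control mouse, and HFD mouse 3 was the low value of a tight control group. The log2 fold change of Acadvl was 0.37 (limma SE 0.07, adjusted p = 0.00103; exact permutation p = 0.00216, which is the smallest that 5 against 6 mice can give).

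Acadl (chr1:66830839-66863309) encodes the long-chain acyl-CoA dehydrogenase. HFD mice 1 to 5 had 7.92, 8.10, 7.86, 7.92 and 8.04 log2 CPM of Acadl. The HFD + IMC mice had a lowest value of 8.13, a median of 8.39 and a highest value of 8.50 log2 CPM. The groups stood 0.03 log2 CPM apart at their nearest mice, HFD mouse 2 and HFD + IMC mouse 3. The log2 fold change of Acadl was 0.39 (limma SE 0.07, adjusted p = 0.000810, exact permutation p = 0.00433).

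Acadm (chr3:153922353-153944643) encodes the medium-chain acyl-CoA dehydrogenase, whose inherited loss is the most common defect of this pathway in humans. Its control values were 7.72, 8.14, 7.81, 7.94 and 7.98 log2 CPM in HFD mice 1 to 5. The treated values lay between 8.39 and 8.62 log2 CPM with a median of 8.51, so the lowest treated mouse was 0.25 log2 CPM above the highest control mouse. Acadm rose 1.51-fold, a log2 fold change of 0.59 (limma SE 0.07, adjusted p = 7.42e-05, exact permutation p = 0.00216).

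Acads (chr5:115110299-115119346) encodes the short-chain acyl-CoA dehydrogenase. In HFD mice 1 to 5 its level was 6.76, 6.92, 6.66, 6.82 and 6.96 log2 CPM. The HFD + IMC mice ranged from 7.09 to 7.34 log2 CPM with a median of 7.21, all above the controls. The log2 fold change of Acads was 0.39 (limma SE 0.07, adjusted p = 0.000578, exact permutation p = 0.00216), close in size to those of Acadvl and Acadl.

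The 300-base windows around the starts of Acadm and Acadvl (250 bases before the start and 50 after, RefSeq, GRCm38.p6, minus strand of the genome) are shown because, of the 8 genes with a window here, these 2 hold the nuclear receptor half-site AGGTCA. Capitals mark the half-site, which in Acadm lies on the reverse strand. The windows are at chr3:153944594-153944893 and chr11:70015379-70015678.
Acadm: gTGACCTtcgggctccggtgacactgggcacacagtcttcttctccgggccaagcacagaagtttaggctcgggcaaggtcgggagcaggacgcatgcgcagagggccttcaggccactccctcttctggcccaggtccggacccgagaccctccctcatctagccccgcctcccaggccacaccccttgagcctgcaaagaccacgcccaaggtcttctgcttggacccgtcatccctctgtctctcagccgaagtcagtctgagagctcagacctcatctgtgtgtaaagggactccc
Acadvl: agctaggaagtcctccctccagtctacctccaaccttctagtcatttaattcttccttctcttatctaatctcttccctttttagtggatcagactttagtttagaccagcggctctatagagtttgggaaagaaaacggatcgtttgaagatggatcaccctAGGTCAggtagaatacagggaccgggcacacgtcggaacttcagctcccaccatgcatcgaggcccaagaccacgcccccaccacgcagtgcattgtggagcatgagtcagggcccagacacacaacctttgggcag

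Both of these genes rose, as did the 6 genes whose windows hold no half-site. Of all 32851 RefSeq windows of this length, 16.3% hold AGGTCA on either strand. A direct repeat of the half-site with 1 base between (AGGTCANAGGTCA), the form that PPAR and RXR bind together, was in 0 of the 8 windows and in 0.0396% of all windows. The longer half-site TNAAGGTCA, typical of the estrogen-related receptors, was in 0 of the 8 and in 1.28% of all windows. These counts describe letters in short windows and say nothing of binding.

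Hadha and Hadhb encode the alpha and beta subunits of the mitochondrial trifunctional protein, which carries out the last reactions of a turn on long-chain substrates. Their genes lie head to head on chromosome 5 (Hadha at chr5:30119423-30154980 on the minus strand, Hadhb at chr5:30155253-30184593 on the plus strand), and their starts are 273 bases apart. The Hadhb window (chr5:30155003-30155302, plus strand, GRCm38.p6, RefSeq) is shown because it is largely the same DNA as the Hadha window. Capitals mark the 228 bases that both windows share.
Hadhb: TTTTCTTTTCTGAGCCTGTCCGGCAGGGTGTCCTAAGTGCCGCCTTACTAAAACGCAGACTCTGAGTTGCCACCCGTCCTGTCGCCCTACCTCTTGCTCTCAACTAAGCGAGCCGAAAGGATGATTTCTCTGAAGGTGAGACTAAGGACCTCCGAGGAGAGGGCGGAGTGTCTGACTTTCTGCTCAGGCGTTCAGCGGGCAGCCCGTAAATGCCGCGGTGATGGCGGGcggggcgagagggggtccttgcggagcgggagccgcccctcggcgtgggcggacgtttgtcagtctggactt

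The pair moved by different amounts. Hadha was at 8.43, 8.43, 8.53, 8.55 and 8.41 log2 CPM in HFD mice 1 to 5. In HFD + IMC mice its lowest value was 8.57, its median 8.59 and its highest 8.66 log2 CPM, so the nearest mice of the groups were 0.02 log2 CPM apart. The difference was the smallest of the 10 genes, 1.09-fold, with a log2 fold change of 0.13 (limma SE 0.04, adjusted p = 0.0330, exact permutation p = 0.00216). The call on Hadha did not pass without any one of HFD mice 1, 2 or 5 or HFD + IMC mice 2, 3 or 4 (log2 fold change 0.11 to 0.13, limma adjusted p = 0.0534 to 0.0715). It also did not pass with libraries scaled to total reads (log2 fold change 0.09, limma adjusted p = 0.0975).

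Hadhb had 5.04, 5.16, 5.22, 5.36 and 5.03 log2 CPM in HFD mice 1 to 5. The treated mice ranged from 5.34 to 5.62 log2 CPM with a median of 5.49. It was the only one of the 10 genes whose groups overlapped, through HFD mouse 4 and HFD + IMC mouse 5. Hadhb rose by a log2 fold change of 0.33 (limma SE 0.07, adjusted p = 0.00221, exact permutation p = 0.00649). Its level is uncertain, since 69.7% of the Hadhb transcript (1428 bases) is matched at 99.8% identity by the processed pseudogene Gm13910 on chromosome 2, and a further copy, Gm9108 on chromosome 15, matches it at 97.6%. Reads that fit more than one place are not counted by the aligner, so this can lower the level of Hadhb in every mouse.

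Hadh (chr3:131233419-131272101) encodes the hydroxyacyl-CoA dehydrogenase for short and medium chains. Its level was 7.44, 7.80, 7.48, 7.60 and 7.78 log2 CPM in HFD mice 1 to 5. The HFD + IMC mice reached from 7.98 to 8.33 log2 CPM with a median of 8.12. Within the gene set examined, Hadh had the largest SD in both groups (0.16 in HFD and 0.15 in HFD + IMC mice). In HFD mice Acadm was nearly tied with it, and some pathway genes outside the set varied more. The groups still stayed 0.18 log2 CPM apart for Hadh. The log2 fold change of Hadh was 0.51 (limma SE 0.09, adjusted p = 0.000569, exact permutation p = 0.00216).

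Acaa2 encodes a mitochondrial thiolase for medium chains. HFD mice 1 to 5 had 7.21, 7.30, 7.28, 7.38 and 7.36 log2 CPM of Acaa2, and the HFD + IMC mice 7.40 to 7.61 with a median of 7.53. The lowest treated mouse was 0.02 log2 CPM above the highest control mouse. Acaa2 rose by a log2 fold change of 0.21 (limma SE 0.05, adjusted p = 0.00564, exact permutation p = 0.00433), the second smallest difference of the 10 genes.

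Decr1 (chr4:15917240-15945377) encodes the mitochondrial dienoyl-CoA reductase, the auxiliary enzyme that lets polyunsaturated fatty acids enter the cycle. Its control values were 7.26, 7.63, 7.37, 7.52 and 7.53 log2 CPM in HFD mice 1 to 5. The treated values lay between 7.92 and 8.22 log2 CPM with a median of 8.08. Decr1 had the widest gap between the groups, 0.29 log2 CPM, together with Etfdh. It rose 1.53-fold, a log2 fold change of 0.61 (limma SE 0.08, adjusted p = 9.72e-05, exact permutation p = 0.00216), and 94.7% of all genes had a lower log2 fold change.

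Etfdh (chr3:79603788-79628767) encodes the electron transfer flavoprotein-ubiquinone oxidoreductase, the single exit through which electrons of the acyl-CoA dehydrogenases reach the respiratory chain. In HFD mice 1 to 5 the level of Etfdh was 6.45, 6.74, 6.56, 6.63 and 6.66 log2 CPM. In HFD + IMC mice it ran from 7.03 to 7.28 with a median of 7.13 log2 CPM. Etfdh rose 1.44-fold, a log2 fold change of 0.53 (limma SE 0.06, adjusted p = 6.59e-05, exact permutation p = 0.00216). The next gene start, 312 bases away on the other strand, belongs to 4930579G24Rik, whose log2 fold change was 0.01 (limma SE 0.14, adjusted p = 0.945).

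The Etfdh window (chr3:79628718-79629017, minus strand, GRCm38.p6, RefSeq) is shown because it carries a match to the core of the NRF1 site, a factor known for control of respiratory chain genes. Capitals mark GCGCNTGCG, which here matches on both strands with an overlap.
Etfdh: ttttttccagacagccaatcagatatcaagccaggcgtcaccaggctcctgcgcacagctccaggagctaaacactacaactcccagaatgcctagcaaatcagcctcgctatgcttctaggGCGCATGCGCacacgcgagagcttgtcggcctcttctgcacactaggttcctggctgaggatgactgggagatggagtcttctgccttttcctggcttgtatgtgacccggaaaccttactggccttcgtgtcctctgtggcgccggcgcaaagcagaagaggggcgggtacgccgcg

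The NRF1 core was found in 2 of the 8 windows (Etfdh and Acadm) and in 6.31% of all windows. The GC box GGGCGG was in 6 of the 8 (Acadl, Acads, Etfdh, Hadh, Hadha and Hadhb) and in 35.7% of all windows, and CCAAT was in 2 of the 8 (Etfdh and Hadh) and in 37.4%, with both strands searched. The only GC box of the Hadha window lies in the DNA shared with Hadhb. It is the same site as a Hadhb match, so Hadha and Hadhb are not separate cases in this count. The transcript of Nrf1 itself had a log2 fold change of -0.11 (limma SE 0.06, adjusted p = 0.147).

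**Figure D2:**
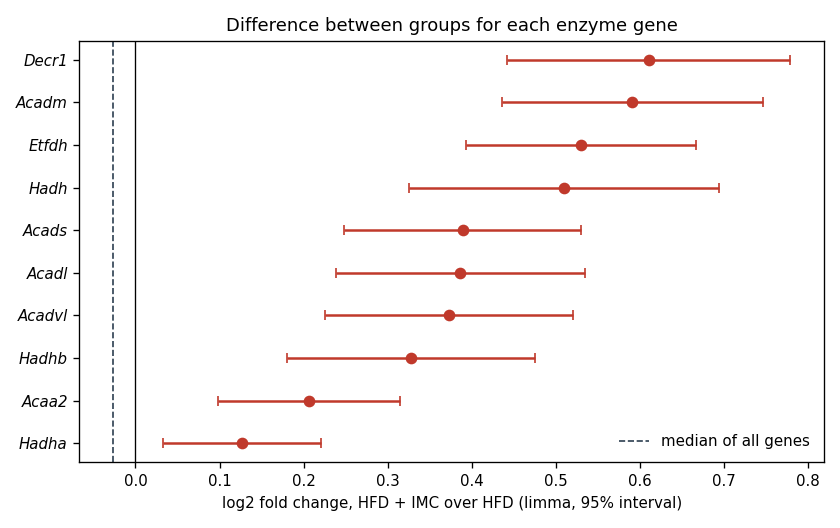
Log2 fold change of each gene, HFD + IMC over HFD, with its 95% interval from limma. Points run from 0.13 (Hadha) to 0.61 (Decr1), every interval lies above 0, and the dashed line marks the median of all genes at -0.03.

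By size, 4 genes changed by more than 0.5 on the log2 scale (Decr1, Acadm, Etfdh and Hadh), 4 by between 0.3 and 0.4 (Acads, Acadl, Acadvl and Hadhb), and 2 by less than 0.3 (Acaa2 and Hadha). The intervals of neighbours in this order overlap, and the order was not tested. Sizes were compared between genes only in 7 pairs, namely all pairs of Acadvl, Acadl, Acadm and Acads, and Hadha with Hadhb. These were chosen for the chain lengths of the 4 dehydrogenases and for the 2 subunits of 1 protein. Each was taken as the difference of 2 genes within a mouse, which does not depend on how a library is scaled. Of the pairs, 4 differed between the groups by exact permutation with Benjamini-Hochberg adjustment over the 7. All of these but Hadha with Hadhb include Acadm, so they are not independent results. How often pairs of other genes differ was not computed.

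Acadm shifted against each of Acadvl, Acadl and Acads, the acyl-CoA dehydrogenases it was compared with. Within a mouse, Acadl was 0.05 ± 0.09 log2 CPM above Acadm in HFD mice (SD, n = 5) and below it in HFD + IMC mice, at -0.16 ± 0.08 (SD, n = 6). This is a shift of -0.20 (SE 0.05, exact p = 0.00433, adjusted p = 0.0152). Acadm exceeded Acads by 1.10 ± 0.10 log2 CPM in HFD mice and by 1.30 ± 0.07 in HFD + IMC mice (shift 0.20, SE 0.06, exact p = 0.00216, adjusted p = 0.0152). The groups did not overlap in this difference, but their nearest mice were almost tied (1.2258 in HFD and 1.2263 in HFD + IMC). The difference of Acadvl from Acadm shifted by -0.22 (SE 0.08, exact p = 0.0195, adjusted p = 0.0341), and by -0.16 without HFD mouse 1 (exact p = 0.0524).

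No shift was detected among Acadvl, Acadl and Acads, and further acyl-CoA dehydrogenases were in no pair. The shift was -0.01 for Acadvl against Acadl (SE 0.06, exact p = 0.844, adjusted p = 0.965), -0.02 for Acadvl against Acads (SE 0.04, exact p = 0.680, adjusted p = 0.952), and 0.00 for Acadl against Acads (SE 0.05, exact p = 0.965, adjusted p = 0.965). With these errors, shifts near 0.1 could have gone undetected.

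The subunits of the trifunctional protein differed too. Hadha exceeded Hadhb by 3.31 ± 0.08 log2 CPM in HFD mice (SD, n = 5) and by 3.11 ± 0.09 in HFD + IMC mice (SD, n = 6), a shift of -0.20 (SE 0.05, exact p = 0.00649, adjusted p = 0.0152). The level of Hadhb within a group carries the uncertainty from its pseudogene copies, and the Hadha transcript is the longer one.

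**Figure D3:**
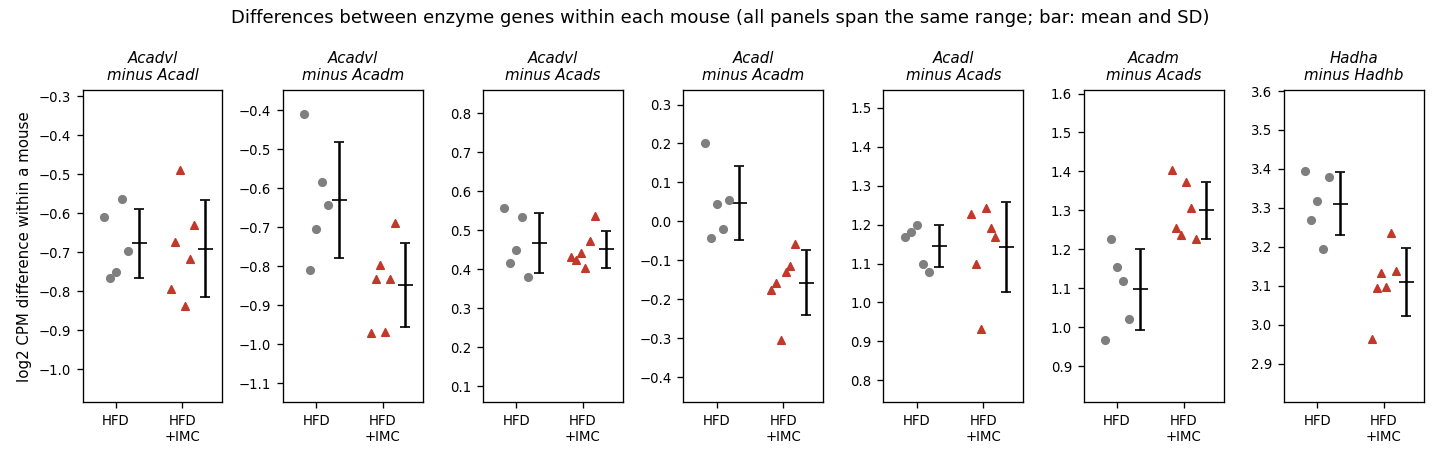
Difference in log2 CPM between 2 genes within each mouse, for 7 pairs, with HFD mice as grey circles and HFD + IMC mice as red triangles and bars for the mean and SD. Acadm minus Acads has every treated mouse above the controls, the nearest mice being almost tied (1.2263 and 1.2258), with a shift of 0.20. Acadvl minus Acadl shifts by -0.01.

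Levels were compared between genes per length of the longest GENCODE transcript that is paired with RefSeq, as log2 CPM per kb. In HFD mice the order was Acadl (7.03 ± 0.10), Acadm (6.89 ± 0.16), Hadh (6.78 ± 0.16), Acaa2 (6.70 ± 0.07), Hadha (6.46 ± 0.07), Acadvl (6.17 ± 0.10), Acads (5.92 ± 0.12), Decr1 (5.90 ± 0.15), Etfdh (5.36 ± 0.11) and Hadhb (4.13 ± 0.14), with SD over 5 mice. Neighbours from Acadl to Acaa2, and Acads with Decr1, lay within their SDs of each other. In HFD + IMC mice Acadm came first (7.48 ± 0.09, SD, n = 6) with Acadl next (7.42 ± 0.13), a pair that again overlapped. Decr1 reached 6.51 ± 0.14 log2 CPM per kb there and passed Acads (6.31 ± 0.11), and Hadhb stayed last at 4.45 ± 0.10. The place of Hadhb carries the uncertainty from its pseudogene copies.

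**Figure D4:**
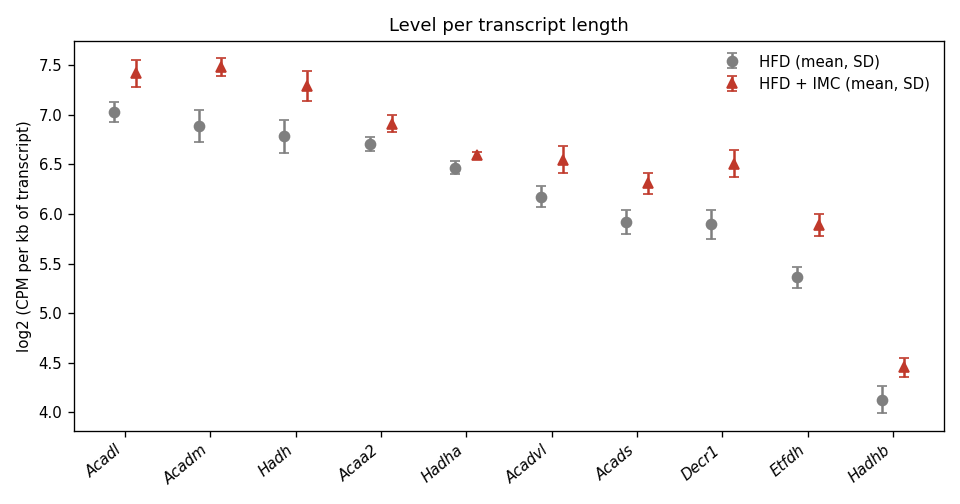
Level per length of transcript, in log2 CPM per kb, as the mean and SD of HFD mice (grey circles) and HFD + IMC mice (red triangles). Genes are ordered by their HFD level, from Acadl (7.03) to Hadhb (4.13).

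Mice within a group differed in a common way in most of these genes, though not in Hadha. HFD mouse 1 was the lowest control mouse for 5 of the 10 genes and HFD mouse 2 the highest for 5. Among treated mice, HFD + IMC mouse 5 was the lowest for 6 genes, and mice 1 and 6 were the highest for 4 each. Deviations from the group means of Etfdh and Decr1 went together most closely (Pearson r = 0.96 over the 11 mice). Over the 45 pairs of genes the median r was 0.56, and 35 were positive. These correlations share libraries and scaling, were not set against pairs of other genes, and are given as a description.

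Hadha went with few of the others, being positive in r with 2 of 9 genes, Hadhb (0.75) and Acaa2 (0.32). Acaa2 was positive with all 9, at 0.69 with Hadhb, 0.56 with Acadm and 0.54 with Decr1, and so lay between Hadhb and the rest. For a description chosen after these values were seen, Hadha, Hadhb and Acaa2 were set apart. Among the 7 genes other than these 3, r ran from 0.47 to 0.96 in 21 pairs. Among Hadha, Hadhb and Acaa2 it ran from 0.32 to 0.75 in 3 pairs, the highest being Hadha with Hadhb. Between the sets it ran from -0.52 to 0.56, with a median of 0.04 in 21 pairs. HFD mouse 4, for example, was highest for Hadha, Hadhb and Acaa2 (and for Acadvl), while HFD mouse 2 was highest for Acadl, Acadm, Hadh, Etfdh and Decr1.

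**Figure D5:**
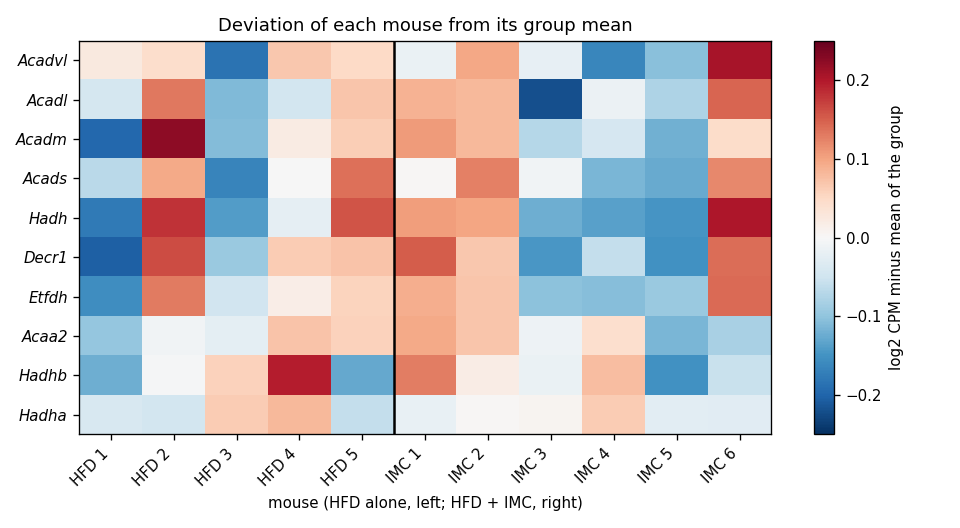
Deviation of each mouse from the mean of its group, in log2 CPM (red above, blue below), for the 10 genes, with IMC standing for HFD + IMC. The upper 7 rows share the sign in most mice, as in HFD mouse 2, while Hadhb and Hadha are high in HFD mouse 4.

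The 5 other genes whose within-group deviations were most like those of the 10 genes over the 11 mice were Enpp5 (r = 0.95, log2 fold change 0.62), Fah (0.94, 0.48), Ankrd39 (0.94, 0.11), Arxes2 (0.94, 0.65) and Lmo4 (0.93, 0.44). All but Ankrd39 (limma adjusted p = 0.317) were higher in HFD + IMC mice, with limma adjusted p from 0.000103 to 0.00443.

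The other genes of mitochondrial beta-oxidation and of the propionyl-CoA route rose with these enzymes in 12 of 16 cases. In this list 0 of 16 fell (median log2 fold change 0.46). Here and in the lists below, counts are to be read against the shares of all genes called higher and lower, given at the start. Acad11, an acyl-CoA dehydrogenase for long chains, rose by 0.82 (limma SE 0.09, adjusted p = 3.62e-05). Acad9, which also serves complex I assembly, rose by 0.56 (SE 0.06, adjusted p = 5.12e-05), and Mut, the methylmalonyl-CoA mutase, by 0.50 (SE 0.06, adjusted p = 6.80e-05). Etfa, the alpha subunit of the flavoprotein that feeds Etfdh, had a log2 fold change of 0.50 (limma SE 0.07, adjusted p = 0.000198). It was chosen for its link to Etfdh after its value was seen.

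Fatty acids reach the matrix through acyl-CoA synthetases and the carnitine shuttle, where 7 of 13 genes were higher and 1 was lower. Acsl1, the main synthetase of adipocytes, had a log2 fold change of 0.91 (limma SE 0.11, adjusted p = 8.60e-05), Crat, carnitine acetyltransferase, 0.39 (SE 0.06, adjusted p = 0.000226) and Cpt2, the inner membrane carnitine palmitoyltransferase, 0.51 (SE 0.08, adjusted p = 0.000356). Cpt1a, an outer membrane enzyme whose activity limits entry, was at -0.05 (SE 0.05, adjusted p = 0.497), a name added after its value was seen. Cpt1c was lower at -0.34 (SE 0.12, adjusted p = 0.0298). Cpt1b and Acsl6 of this list were not analysed here. The 7 higher genes include Acaca and Acacb, which make malonyl-CoA, an inhibitor of the shuttle.

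In peroxisomes, which shorten very long and branched chains, 10 of 16 genes were higher and 1 was lower (median 0.35). Abcd2, a peroxisomal importer of very long-chain acyl-CoA, had a log2 fold change of 0.87 (limma SE 0.08, adjusted p = 3.22e-05), Hsd17b4, the bifunctional enzyme, 0.50 (SE 0.05, adjusted p = 4.00e-05) and Scp2, a thiolase, 0.57 (SE 0.06, adjusted p = 5.18e-05).

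Of 16 transcriptional regulators linked to the pathway, 6 were higher, 2 lower and 8 not called (median 0.15). Lpin1, a phosphatidate phosphatase and coactivator, had a log2 fold change of 0.74 (limma SE 0.11, adjusted p = 0.000232), Pparg, the adipocyte PPAR, 0.70 (SE 0.11, adjusted p = 0.000292) and Rxra, its partner, 0.35 (SE 0.06, adjusted p = 0.000773). The higher genes also include the corepressors Nrip1 and Ncor1. Ppara was higher too, with the largest log2 fold change of the list, 0.99 (SE 0.19, adjusted p = 0.00142). Its groups overlapped, and its mean level in HFD mice was low, at 2.47 log2 CPM. Ppara, Nrip1 and Ncor1 were named after their values were seen. Nr2f1, an orphan nuclear receptor, was lower at -0.56 (SE 0.14, adjusted p = 0.00764) and Rxrb at -0.13 (SE 0.04, adjusted p = 0.0280). The coactivator gene Ppargc1a was not analysed here.

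Complex II, which like Etfdh passes electrons to ubiquinone, had 3 of 4 subunit genes higher and 0 lower. Sdha was at a log2 fold change of 0.37 (limma SE 0.05, adjusted p = 0.000231), Sdhc at 0.20 (SE 0.05, adjusted p = 0.0111) and Sdhd at 0.16 (SE 0.06, adjusted p = 0.0477). Among 5 genes of ketone body metabolism, which starts from acetyl-CoA, 2 were higher and 1 was lower. Oxct1 rose by 0.29 (SE 0.05, adjusted p = 0.000660) and Acat1 by 0.52 (SE 0.10, adjusted p = 0.00104).

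Marker transcripts of adipocytes and macrophages also differed between the groups. Of 10 adipocyte markers, 9 were higher and 0 lower in HFD + IMC mice (median log2 fold change 0.85), and their summed level was 19445 to 24077 CPM in HFD mice and 29722 to 34401 CPM in HFD + IMC mice. Adipoq, which defines adipocytes, was among them at a log2 fold change of 1.18 (limma SE 0.15, adjusted p = 0.000103). Of 12 macrophage markers, 0 were higher and 11 lower (median -0.62), with summed levels of 10934 to 13829 CPM in HFD mice and 6453 to 9286 CPM in HFD + IMC mice. Their part in the rise of the 10 genes was not tested.

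By the mean deviation over the list, the HFD mice stood in the same order for the 10 enzyme genes and for the adipocyte markers (mouse 1 lowest, then 3, 4, 5 and 2), and in the reverse order for the macrophage markers. The skeletal muscle markers gave nearly the same order, with mice 2 and 5 exchanged. Some places are near ties, such as mice 4 and 5 for the enzyme genes (-0.18 and -0.17 log2 CPM from the mean of all mice), mice 5 and 2 for the adipocyte markers and mice 1 and 3 for the macrophage markers. HFD mouse 1 was 0.33 below the mean of all mice over the enzyme genes, 0.70 below it over the adipocyte markers, and 0.42 above it over the macrophage markers, all in log2 CPM. Within the HFD + IMC group the full orders were not the same, since mouse 5 was lowest for the enzyme genes and mouse 4 for the adipocyte markers. Mice 1, 2 and 6 still stood above mice 3, 4 and 5 for both of these lists, and below them for the macrophage markers. For the skeletal muscle markers this split did not hold, with mouse 4 (0.58) just above mouse 6 (0.57). A link between the lists was not tested.

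Tissues that oxidise fat at a high rate were checked as well. Brown and beige adipocyte markers had summed levels of 20.3 to 28.3 CPM in HFD mice and 29.5 to 41.0 CPM in HFD + IMC mice. Of 6 analysed, 3 were higher (Cidea, Cox8b and Prdm16, named after their values were seen) and 0 lower. The groups overlapped for all 6, and Cidea was low in HFD mice, at a mean of 0.90 log2 CPM. Not called were Dio2 (log2 fold change -0.35, limma adjusted p = 0.178), Cox7a1 (0.32, adjusted p = 0.152) and Elovl3 (0.43, adjusted p = 0.159). Ucp1 was not analysed here. Of 6 skeletal muscle markers, 4 were higher and 0 lower, with sums of 24.6 to 35.2 CPM in HFD mice and 65.7 to 89.7 CPM in HFD + IMC mice. Ckm, Myh1, Myh4, Myh7 and 5 further muscle genes of that list were not analysed here. Among the remaining lists, 3 of 6 progenitor and fibroblast markers, 5 of 5 mast cell markers and 1 of 4 mesothelial markers were lower. Of the endothelial markers, 1 of 5 was higher, and the 1 lymphocyte marker analysed was not called. The mesothelial and endothelial counts are close to the shares of all genes called lower and higher, so they do not stand out. The 5 epithelial and epididymal markers were not analysed here. For all these lists a part in the rise of the 10 genes was not tested.

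Of the genes that touch the 10 loci, 2 were analysed beside the genes already named, and neither passed the test. Dvl2, which overlaps 26.1% of the Acadvl transcript (565 bases) from the opposite strand in the GENCODE annotation, had a log2 fold change of -0.18 (limma SE 0.09, adjusted p = 0.120). Ppid, which overlaps the Etfdh locus by 23 bases, was at -0.08 (SE 0.08, adjusted p = 0.406). The strand setting of the counting is not given in the sources used here, so reads on such overlaps cannot be told apart.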

How the data were processed

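RNA sequencing of gonadal WAT from 5 HFD and 6 HFD + IMC mice was analysed. Per the labels, mRNA libraries were made with a directional kit, and the submitters' processing notes name Trim Galore, FastQC, STAR, edgeR and the build mm10. The authors counted reads per gene with the aligner, removed genes with low counts and scaled the libraries by the upper quartile. They deposited 1 table of log2 CPM values for 12787 genes in 11 mice. Further columns hold the result of the authors' own comparison, namely a log2 fold change, a mean log2 CPM, a likelihood-ratio score, a p-value and an FDR as deposited, and were not used.

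Groups were compared with limma 3.58.1 in R 4.3.3 (lmFit and eBayes with trend) on the deposited log2 CPM of all genes, with group as the only factor, Benjamini-Hochberg adjustment and a threshold of 0.05. No further filter or pseudocount was applied. Single genes and within-mouse differences were compared by two-sided exact permutation over all 462 assignments of mice. The study housed each condition in more than a single cage, but the cage of each mouse is not given in the sources used here, so cage was not a factor in any test.

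Steps of equal size in the CPM values gave back whole reads for 100% of the values (within 0.01 reads), with a mean of 0.25 reads added before the log. The 10 genes had 729 to 10049 reads per mouse. The SD expected from counting was 0.02 to 0.05 log2 CPM, and covers counting error only. These reads served for depth, limma voom and other scalings. The steps were tested on simulated data.

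Genes, lists and comparisons were chosen with earlier results of these data known. Named beyond the 10 genes are the 3 genes of smallest p in each pathway list, those called against their list, overlapping or neighbouring genes, and the 5 genes most alike. Of the genes this rule names, 2 are not reported here. Promoter windows and loci are from RefSeq (GRCm38.p6) and transcript lengths and copies (at least 100 bases at 95% identity) from GENCODE. Decr1 has no window in the source used, and the window of Acaa2 was left out and is not reported here. Python 3.11.15 with scipy 1.17.1 was used.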

Additional observations from a re-analysis of the deposited data

Results flagged for a closer look

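In 2 sets of values, 1 mouse lay far from the others of its group, out of 20 sets tested (10 genes in 2 groups), and chance alone flags about 1 in 20. Acadvl in HFD mouse 3 was 7.107 log2 CPM, while the other HFD mice lay between 7.31 and 7.36 (gap to the nearest mouse over the whole range 0.826). Hadha in HFD + IMC mouse 4 was 8.6613 log2 CPM, while the others lay between 8.57 and 8.60 (gap over range 0.627, just past the limit for 6 mice). HFD mouse 3 was not low for Hadha (8.53 log2 CPM), and HFD + IMC mouse 4 was the lowest of its group for Acadvl. Without HFD mouse 3 and without each other mouse in turn, the log2 fold change of Acadvl stayed between 0.33 and 0.41. Without HFD + IMC mouse 4 that of Hadha was 0.11 (limma adjusted p = 0.0660).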

How the results depend on the processing

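Leaving out each mouse in turn (11 fits) and 6 other settings (limma without the trend, a filter of 1 CPM in every mouse, median-of-ratios scaling, scaling by total reads, limma voom on recovered reads, and a constant of 2 reads) left 9 or 10 of the 10 genes higher. In all 17 fits the calls on the 9 genes other than Hadha passed. For Hadha the log2 fold change was 0.112 to 0.147 with a mouse left out, with 6 of 11 calls lost, and 0.0946 with total reads. The count without overlap was 9 or 10 with a mouse left out. Among within-mouse differences, Acadvl minus Acadm ranged from -0.263 to -0.163 with a mouse left out, and its p missed 0.05 without HFD mouse 1. The shifts near 0 changed sign, at -0.0538 to 0.0157 for Acadvl minus Acadl, -0.0382 to 0.00648 for Acadvl minus Acads and -0.0223 to 0.0398 for Acadl minus Acads. The cause was not tested. Scaling by total reads moved the median of all genes from -0.03 to -0.06. The error of counting was below the SD between mice for each of the 10 genes in both groups, and 5 against 6 mice give no exact p below 0.00216. No paired analysis was possible because the mouse numbers are only names.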
